A study of Mus musculus with 3 samples.

Results

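The genes described here encode 10 growth factor receptor tyrosine kinases: Kit, Fgfr1, Fgfr3, Egfr, Erbb2, Igf1r, Insr, Met, Axl and Mertk. They were chosen by name, and all 10 had a row in a table of 17583 genes. The table holds RNA bound to ribosomes of cardiac endothelial cells from 3 mice, which the labels call biological replicates of 1 condition. All 3 mice were Cdh5-CreERT2;Rpl22tm1.1Psam animals, termed EC-RiboTag. In these mice an inducible Cre recombinase, driven by the promoter of the endothelial cadherin gene Cdh5, switches on an HA tag on the ribosomal protein RPL22, so that tagged ribosomes and their RNA can be pulled down from whole tissue with an antibody. Cdh5 is active in lymphatic as well as blood endothelium, so both kinds of vessel contribute to the values. The labels place all 3 hearts at day 7 after coronary ligation, whereas the study's RiboTag methods name no infarction, and the labels give neither age nor sex. The sample titles carry the letters Rz without explanation. Elsewhere in the study RZ stands for the remote zone, the heart muscle away from the infarct. A supplementary legend describes RNA of EC-RiboTag hearts at day 7 after infarction, taken from the remote zone and from border and infarct zones. That RNA was measured by PCR, and the legend for the sequencing of EC-RiboTag RNA names no infarction or zone. Whether the values describe the remote zone or whole hearts is therefore not settled. With no untreated group, sham group or immunoprecipitation input at hand, each value is a level in a single condition and says nothing of enrichment or of a response to infarction.

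Receptor tyrosine kinases span the plasma membrane once, bind a growth factor outside the cell and phosphorylate tyrosines inside it. The phosphorylated tyrosines recruit adaptor proteins that feed the Ras and ERK, phosphoinositide 3-kinase and AKT, and phospholipase C pathways. In endothelial cells the best known members of the class are the VEGF receptors and the TIE receptors, which govern the growth and stability of vessels. KIT is better known from blood precursors and mast cells, FGF and EGF receptors from many tissues, insulin and IGF receptors from metabolism and growth, MET from epithelia, and AXL and MERTK from the clearance of dying cells.

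The 10 genes share short stretches of coding sequence, which matters for a table made from reads of 72 bases. Windows around a shared run of bases in 5 pairs of these genes are printed to show how alike and how different the transcripts are. They were read from GRCm39, each within a single coding exon, in the direction of transcription, and the capitals mark the run of bases that both genes of a pair share without a mismatch. Kit and Fgfr3 share a run of 21 bases in a window that is 70.0% identical over 60 bases. This pair was chosen by its shared run and not by family, which for Kit holds Pdgfra, Pdgfrb, Csf1r and Flt3.
Kit (chr5:75813210-75813269, forward strand, exon 18 of 21): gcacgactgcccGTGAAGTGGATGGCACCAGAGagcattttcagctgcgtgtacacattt
Fgfr3 (chr5:33891897-33891956, forward strand, exon 15 of 18): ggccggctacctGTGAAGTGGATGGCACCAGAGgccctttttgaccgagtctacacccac
Fgfr1 and Fgfr3, the FGF receptors among the 10 genes, share a run of 26 bases in a window that is 90.0% identical over 60 bases.
Fgfr1 (chr8:26060178-26060237, forward strand, exon 12 of 18): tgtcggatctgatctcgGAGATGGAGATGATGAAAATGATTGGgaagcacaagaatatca
Fgfr3 (chr5:33891221-33891280, forward strand, exon 12 of 18): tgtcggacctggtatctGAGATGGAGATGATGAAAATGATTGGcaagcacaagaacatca
Egfr and Erbb2 belong to the ERBB family, and their window is 90.5% identical over 42 bases around a run of 20 bases.
Egfr (chr11:16856841-16856882, forward strand, exon 23 of 28): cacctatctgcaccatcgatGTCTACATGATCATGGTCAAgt
Erbb2 (chr11:98325733-98325774, forward strand, exon 23 of 27): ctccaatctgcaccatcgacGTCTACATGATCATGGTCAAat
Igf1r and Insr, whose products form hybrid receptors, share a run of 19 bases within single coding exons, in a window that is 83.3% identical over 60 bases.
Igf1r (chr7:67836758-67836817, forward strand, exon 8 of 21): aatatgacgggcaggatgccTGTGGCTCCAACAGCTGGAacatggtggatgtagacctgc
Insr (chr8:3242723-3242782, reverse strand, exon 8 of 21): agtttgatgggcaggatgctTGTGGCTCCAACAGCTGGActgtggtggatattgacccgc
Axl and Mertk, of the TAM family, share a run of 14 bases in a window that is 66.7% identical over 39 bases.
Axl (chr7:25465943-25465981, reverse strand, exon 14 of 20): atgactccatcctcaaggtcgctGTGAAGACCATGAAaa
Mertk (chr2:128621754-128621792, forward strand, exon 13 of 19): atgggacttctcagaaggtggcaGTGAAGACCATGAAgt

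Across whole canonical transcripts, the longest run shared with any other receptor tyrosine kinase was between 17 bases, for Met, and 43 bases, for Igf1r and Insr. No shared run therefore reached the 72 bases of a read. Of all windows of 72 bases in each transcript, none had an exact copy elsewhere in the genome for 9 of the 10 receptors, and 11 of 9314 windows (0.12%) had one for Insr. No receptor had exon bases in common with another gene on the same strand.

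The libraries held about 7321000, 6753000 and 7564000 reads in mice 1, 2 and 3, as estimated from the whole-number steps of the values. The values are counts divided by a size factor per library, called normalized counts, and they summed to 7149102, 7158585 and 7268785. Mouse 1 differed from the others in sex-linked transcripts, with 4 normalized counts of Xist against 618 and 869, and 1080 of Ddx3y against 3 and 1. Eif2s3y had 470 against 2 and 0. This is a male pattern in mouse 1 and a female pattern in mice 2 and 3. Differences between mouse 1 and the other mice thus fall together with sex, whose part in them was not tested. All 12 endothelial markers examined had a row, with a median level of 688 normalized counts per kilobase of transcript, and all 10 cardiomyocyte markers had one as well, with a median of 565. Transcripts of the labelled cell type and of cardiomyocytes were thus both in the pulled-down RNA, and the medians of different genes do not give the proportion of the 2 cell types. Levels of different genes are compared here only per kilobase of the canonical transcript, and the median gene of the table stood at 73.0 normalized counts per kilobase.

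The receptors formed an upper group of 8 genes and a lower pair. Fgfr3, Fgfr1, Kit, Mertk, Insr, Erbb2, Axl and Igf1r lay within 2.68-fold of each other per kilobase, whereas Met and Egfr lay far below them, and the full range from Fgfr3 to Egfr was 72.9-fold. The level per kilobase of 7 of the 10 genes was above the median of the table, and Igf1r stood just under it at 72.7. Against the median of genes with a mean of at least 200 normalized counts, 176 per kilobase, only Fgfr3 was higher. In bulk RNA of this kind, fewer cells with a transcript and less of it per cell cannot be told apart.

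**Figure D1:**
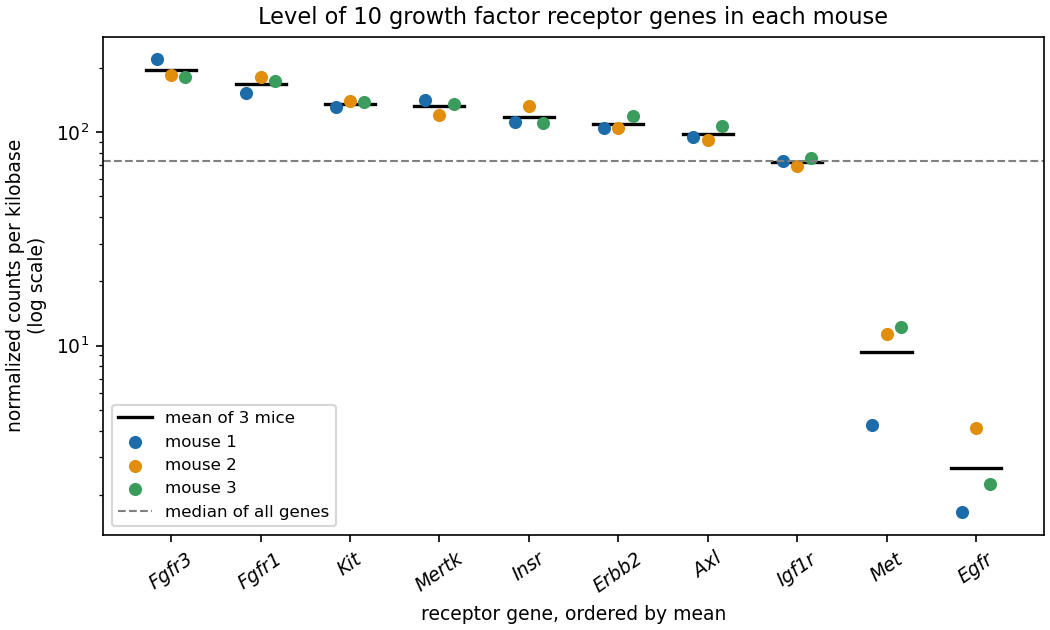
Level of the 10 receptor genes in each mouse, in normalized counts per kilobase of canonical transcript on a log scale, with genes ordered by their mean (black bars) and points for mice 1, 2 and 3. The dashed line is the median of all genes, 73.0, with 7 means above it, Igf1r at it, and Met and Egfr far below it.

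Fgfr3 and Fgfr1 stood highest per kilobase of canonical transcript among the 10 genes. Fgfr3 (ENSMUSG00000054252, chr5:33879018-33894412, forward strand) had 923, 782 and 764 normalized counts in mice 1, 2 and 3, or 195.0 ± 20.6 per kilobase (SD, n = 3). Fgfr1 (ENSMUSG00000031565, chr8:26003670-26065734, forward strand) had 930, 1106 and 1069, or 168.6 ± 15.1 per kilobase. Mouse 1 was thus the highest for Fgfr3 and the lowest for Fgfr1. Within each mouse, the log2 ratio of Fgfr1 to Fgfr3 per kilobase was −0.53, −0.04 and −0.06, with a mean of −0.21 ± 0.28 (SD, n = 3). Fgfr1 was the lower gene in 3 of 3 mice, by little in mice 2 and 3 (mean −0.05 without mouse 1), and the mean ratio was smaller than the spread between mice (exact sign-flip permutation test, two-sided, p = 0.25, adjusted p = 0.25 over 5 ratios, where 0.25 is the smallest p that 3 mice allow). The direction belongs to the division by length, since the undivided normalized counts of Fgfr1 were higher, with a log2 ratio of 0.33.

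Fgfr1 and Fgfr3 made up nearly all of the FGF receptor level. Their shares of the level per kilobase summed over the family were 44.9% ± 4.31 for Fgfr1 and 51.8% ± 5.13 for Fgfr3 (SD, n = 3). Fgfr2 had 49, 49 and 112 normalized counts and a share of 3.30% ± 1.72 (SD, n = 3), and Fgfr4 had no row.

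Kit, the receptor for stem cell factor, was the third of the 10 genes per kilobase and the steadiest between mice. Kit (ENSMUSG00000005672, chr5:75735576-75817382, forward strand) had 688, 734 and 724 normalized counts in mice 1, 2 and 3, or 135.9 ± 4.6 per kilobase (SD, n = 3). Its coefficient of variation (CV, the SD as a percent of the mean) was 3.38%, slightly under the 3.74% that counting alone would give at this depth. Among all genes whose mean was 200 or more, 13.2% had a lower CV. Within the family of receptors with Pdgfra, Pdgfrb, Csf1r and Flt3, Kit took 60.1%, 57.6% and 53.3% of the summed level in the 3 mice. Its relatives mark other cells of the heart. Pdgfrb, of pericytes, took 19.2% ± 1.04, Pdgfra, of fibroblasts, 13.9% ± 1.23, Csf1r, of macrophages, 9.52% ± 1.51, and Flt3, of blood precursors, 0.411% ± 0.144 (SD, n = 3).

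Kit also marks mast cells, and 4 of 8 mast cell markers had a row. Summed, these 4 had 281, 273 and 273 normalized counts, of which the histidine decarboxylase gene Hdc made 277, 264 and 250. The mast cell protease genes were at or near 0. Cma1 had 0, 4 and 6 normalized counts, Mcpt4 had 3, 2 and 4, and Tpsb2 had 1, 3 and 13, while Cpa3, Tpsab1, Fcer1a and Ms4a2 had no row.

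The TAM receptors Mertk and Axl were next to each other in role but not in level. Mertk (ENSMUSG00000014361, chr2:128540876-128644814, forward strand) had 657, 559 and 627 normalized counts in mice 1, 2 and 3, or 131.9 ± 10.8 per kilobase (SD, n = 3). Axl (ENSMUSG00000002602, chr7:25456698-25488130, reverse strand) had 439, 428 and 497, or 97.9 ± 7.98 per kilobase. Axl was the lower gene in 3 of 3 mice, with log2 ratios to Mertk of −0.58, −0.38 and −0.33 and a mean of −0.43 ± 0.13, which is 1.35-fold and more than the spread between mice (exact sign-flip permutation test, two-sided, p = 0.25, adjusted p = 0.25, the smallest that 3 mice allow). Of the summed TAM level per kilobase, Mertk took 51.0% ± 2.87, Axl 37.8% ± 1.31 and the third member Tyro3 11.2% ± 1.56 (SD, n = 3). Division by the length of all annotated exons in place of the canonical transcript, an alternative chosen after seeing the data, moved Mertk to 65.4% and Axl to 25.4%.

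Mertk and Axl are also genes of macrophages, all 11 of whose markers examined had a row. The macrophage markers summed to 884, 1298 and 1257 normalized counts, with a median of 28.7 per kilobase, and the leukocyte gene Ptprc had 94, 190 and 154. Mertk was highest in mouse 1, where the macrophage sum was lowest. The part of macrophage RNA in the levels of Mertk and Axl was not tested.

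Insr and Igf1r, the insulin receptor and the receptor for IGF1, had the largest and the third largest normalized counts of the 10 genes but stood at places 5 and 8 of them per kilobase, since their transcripts are long. Insr (ENSMUSG00000005534, chr8:3172061-3329617, reverse strand) had 1046, 1240 and 1034 normalized counts in mice 1, 2 and 3, or 117.9 ± 12.3 per kilobase (SD, n = 3) over 9385 bases. Igf1r (ENSMUSG00000005533, chr7:67602575-67883416, forward strand) had 915, 860 and 943, or 72.7 ± 3.39 per kilobase over 12466 bases. Mouse 2 was the highest for Insr and the lowest for Igf1r. Igf1r was the lower gene in 3 of 3 mice, with log2 ratios to Insr of −0.60, −0.94 and −0.54 and a mean of −0.69 ± 0.21, or 1.62-fold (exact sign-flip permutation test, two-sided, p = 0.25, adjusted p = 0.25, the smallest that 3 mice allow). The difference exceeded the spread between mice. Insr took 61.8% ± 3.45 and Igf1r 38.2% ± 3.45 of their summed level, and the third gene of the family, Insrr, had no row.

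Erbb2 dominated its family, and Egfr was the lowest of the 10 genes. Erbb2 (ENSMUSG00000062312, chr11:98303296-98328542, forward strand), which has no ligand of its own and acts as a partner of the other ERBB receptors, had 534, 530 and 605 normalized counts in mice 1, 2 and 3, or 109.0 ± 8.27 per kilobase (SD, n = 3). Egfr (ENSMUSG00000020122, chr11:16702203-16868158, forward strand) had 17, 42 and 23, or 2.67 ± 1.28 per kilobase. Within each mouse Egfr was far below Erbb2, with log2 ratios per kilobase of −5.97, −4.66 and −5.72 and a mean of −5.45 ± 0.70, or 43.7-fold (exact sign-flip permutation test, two-sided, p = 0.25, adjusted p = 0.25, the smallest that 3 mice allow). This was the largest difference of the 5 ratios tested. Of the summed ERBB level, Erbb2 took 88.1% ± 1.56, Erbb3 6.90% ± 0.609, Erbb4 2.78% ± 0.368 and Egfr 2.18% ± 1.1 (SD, n = 3).

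The Egfr value rests on few reads. They numbered about 17, 40 and 24 in mice 1, 2 and 3, with 95% Poisson intervals of 9.90 to 27.2, 28.6 to 54.5 and 15.4 to 35.7, which cover counting error only. The intervals of mice 1 and 2 did not overlap, and that of mouse 3 overlapped both. Counting alone would give a CV of 19.2%, and the CV between mice was 47.7%.

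Met, the receptor for hepatocyte growth factor, was low in all 3 mice and lowest in mouse 1. Met (ENSMUSG00000009376, chr6:17463799-17573979, forward strand) had 29, 78 and 84 normalized counts in mice 1, 2 and 3, or 9.28 ± 4.4 per kilobase (SD, n = 3). These values correspond to about 30, 74 and 87 reads, with 95% Poisson intervals of 20.2 to 42.8, 58.1 to 92.9 and 69.7 to 107. The interval of mouse 1 lay apart from those of mice 2 and 3, which overlapped. The CV of 47.4% exceeded the 12.5% of counting alone. Of the summed level of Met and its relative Mst1r, Met took 48.7%, 70.9% and 71.5% in the 3 mice.

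Mouse 1 also had the lowest summed markers of several other cell types. All 5 lymphatic endothelial markers had a row and summed to 2834, 3523 and 3989 normalized counts in mice 1, 2 and 3. All 8 fibroblast markers summed to 2837, 3387 and 3783, and all 8 mural cell markers to 1652, 2012 and 2162. All 10 cardiomyocyte markers summed to 20487, 21203 and 24086, but their median per kilobase was 571, 581 and 540, lowest in mouse 3. As given above, the macrophage sum was also lowest in mouse 1, at 884, and so were the Schwann cell and epicardial sums given below. The mast cell sum, in contrast, was highest in mouse 1, but Hdc made nearly all of it. Of its other genes, Cma1 and Tpsb2 were lowest in mouse 1 and Mcpt4 in mouse 2. The part of these cells in the level of Met was not tested, nor was that of cardiomyocytes in the level of any receptor.

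**Figure D2:**
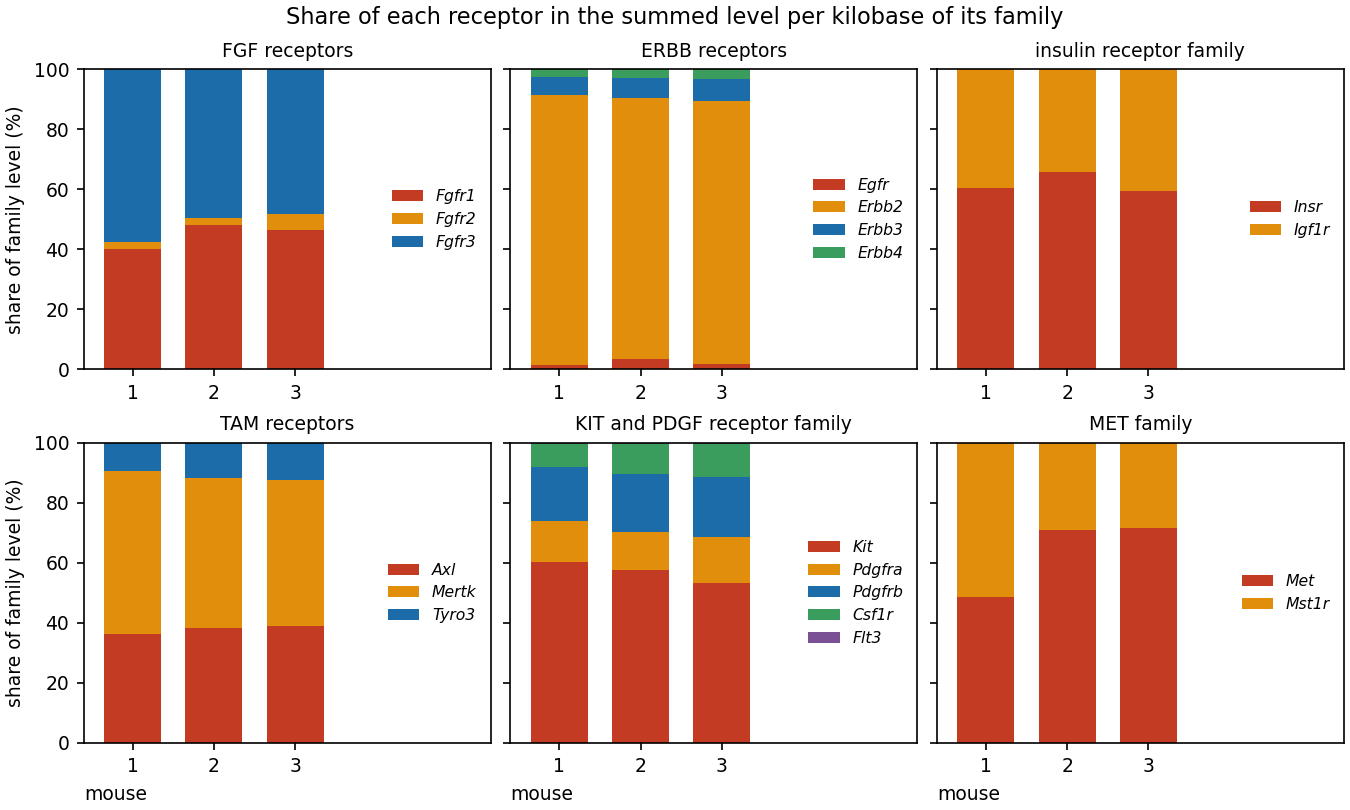
Share of each receptor in the level per kilobase summed over its family, in percent, as stacked bars for mice 1, 2 and 3 in 6 receptor families. Erbb2 fills 86.9% to 89.9% of the ERBB bars and Egfr 1.43% to 3.44%, Fgfr1 and Fgfr3 fill nearly all of the FGF receptor bars, and the share of Met is lowest in mouse 1.

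The order of the 10 levels was clear at its lower end, with Met and Egfr, and depended on the mouse or on the length used above it. Of 9 pairs of neighbours in the order per kilobase, 7 were farther apart than the larger SD of the pair, and 6 had the same order in every mouse. Kit and Mertk differed by 3.97 normalized counts per kilobase against an SD of 10.8, and Insr and Erbb2 by 8.94 against 12.3, so neither pair differed beyond its spread. Mertk and Insr differed by 14.0 against 12.3 but kept their order in only 2 of 3 mice. Fgfr3, Fgfr1 and the 4 lowest genes, Axl, Igf1r, Met and Egfr, each kept their place relative to their neighbours in all 3 mice. The order depends on the length used. Per kilobase of all annotated exons, Mertk was the highest at 128 and Erbb2 followed at 103, with Fgfr3 at 93.3, Fgfr1 at 81.0, Insr at 80.3, Kit at 75.5, Axl at 49.5 and Igf1r at 45.8, while Met and Egfr remained the lowest at 8.24 and 2.37. With that length 8 of the 10 genes were above the median of the table and 5 of the 9 neighbours differed beyond their SD.

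For the receptors with a mean of at least 200, the spread between mice was like that of other genes of that level. The 8 receptors with a mean of at least 200 had CVs from 3.38% for Kit to 10.6% for Fgfr3, with a median of 8.16%, while the median over all 9358 genes of that level was 7.37%. A CV over 20% was found for 2 of the 10 receptors, Met and Egfr, both with a mean under 200, against 24.2% of all genes with a mean of at least 10. Of those 14441 genes, 9358 had a mean of at least 200, so Met and Egfr were not compared with genes of their own level. It was found for 0 of the 8 receptors with a mean of at least 200, against a background of 8.0% of all genes of that level. Without mouse 1, 1 of the 10 receptors, Egfr, exceeded 20%, against 15.8% of all genes with a mean of at least 10.

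**Figure D3:**
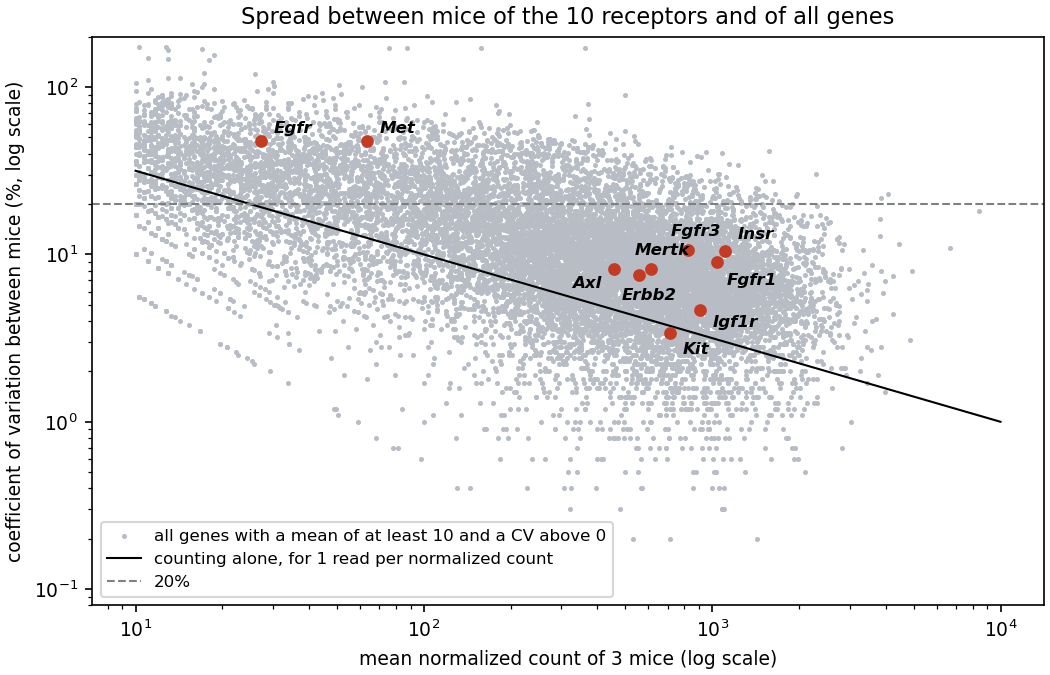
CV between the 3 mice in percent against the mean normalized count, both on log scales, for the 10 receptors (red) and for all genes with a mean of at least 10 (grey), with the CV of counting alone as a black line and 20% as a dashed line. Kit lies just under the counting line at 3.38%, the other 7 receptors of the upper group lie between the counting line and 20%, and Met and Egfr lie above 20% at 47.4% and 47.7%.

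Set beside all receptor tyrosine kinase genes, the upper group followed after 7 others, most of them receptors of vessel growth. Of 58 such genes searched, 46 had a row and 12 had none. Per kilobase the 5 highest were Flt1, a VEGF receptor, at 713 ± 56.9 normalized counts, Tie1 at 668 ± 25.5, the main VEGF receptor Kdr at 554 ± 13.5, Ephb4, of venous endothelium, at 531 ± 6.72, and the angiopoietin receptor Tek at 472 ± 39.7 (SD, n = 3). Together these made 53.8% ± 1.91 of the level summed over the 46 genes, and the 10 receptors described here made 19.0% ± 0.456. The latter share was 18.8%, 19.6% and 18.8% in mice 1, 2 and 3. Those without a row included Fgfr4 and Insrr, relatives of the receptors described here, and several ephrin receptors, Epha3, Epha5, Epha6, Epha8 and Epha10.

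Fgfr3 and Fgfr1 were eighth and ninth of the 46 genes in every mouse. Places too depend on the length used. With the length of all annotated exons, Mertk stood at place 7, Erbb2 at 9, Fgfr3 at 10, Fgfr1 at 14, Insr at 15, Kit at 16, Axl at 18 and Igf1r at 19, while Ryk moved from place 6 to 17. Per kilobase of canonical transcript the neighbours were as follows. Next above Fgfr3 stood Flt4, the VEGF receptor of lymphatic endothelium, at 262 ± 40.1 normalized counts per kilobase. Places 10 to 19 held Epha2 at 141 ± 25.9, Kit, Mertk, Ephb1 at 126 ± 2.11, Insr, Epha4 at 111 ± 11.8, Erbb2, Axl, Lmtk2 at 93.1 ± 6.74 and Igf1r, with Ddr1 following at 60.5 ± 21.2 (SD, n = 3). In this stretch 6 of the 10 receptors thus alternated with 3 ephrin receptors and Lmtk2 at much the same level. Met was at place 32, between Ephb3 at 11.5 ± 1.40 and Erbb3 at 8.57 ± 1.43, and Egfr was at place 38, between Erbb4 at 3.46 ± 0.737 and Lmtk3 at 2.48. The median place of the 10 receptors was 15.

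**Figure D4:**
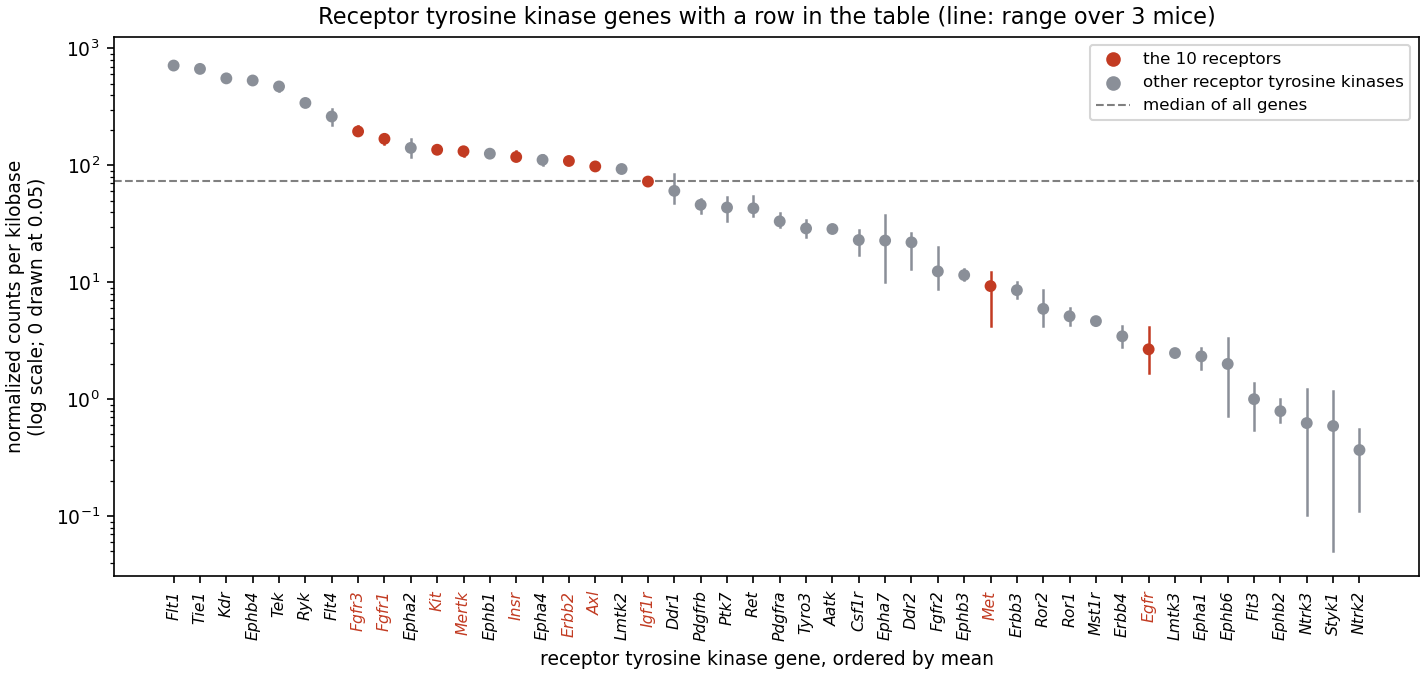
Level of the 46 receptor tyrosine kinase genes with a row, in normalized counts per kilobase on a log scale, ordered by mean (points) with lines for the range over 3 mice, the 10 receptors in red and the other genes in grey. Of the red points, 8 lie at places 8 to 19, after Flt1, Tie1, Kdr, Ephb4, Tek, Ryk and Flt4, while Met and Egfr lie at places 32 and 38.

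The ligands of the 10 receptors differed widely in the same RNA. Kitl, the gene of stem cell factor and the ligand of Kit, had 3597, 3500 and 3246 normalized counts in mice 1, 2 and 3, or 610.4 ± 32.1 per kilobase (SD, n = 3). Kit was below Kitl in 3 of 3 mice, with log2 ratios of −2.28, −2.15 and −2.06 and a mean of −2.17 ± 0.11, or 4.49-fold (exact sign-flip permutation test, two-sided, p = 0.25, adjusted p = 0.25, the smallest that 3 mice allow). Receptor and ligand were both in the pulled-down RNA, with the ligand higher by far more than the spread between mice. Which cells gave either transcript was not tested.

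The TAM ligands were also high. Gas6, which binds Axl, Mertk and Tyro3, had 2052, 1977 and 1934 normalized counts in mice 1, 2 and 3, or 689 ± 20.7 per kilobase. Pros1, the gene of protein S and a ligand of Mertk and Tyro3, had 1450, 1396 and 1305, or 392.9 ± 20.8 per kilobase (SD, n = 3). Both stood well above the receptors themselves in every mouse.

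Ligands of the other families were lower. Of 18 FGF genes searched, 7 had a row, and the highest were Fgf2, with 565, 393 and 565 normalized counts or 80.8 ± 15.8 per kilobase, and Fgf1, with 309, 324 and 259 or 70.1 ± 8.03 per kilobase (SD, n = 3). Both were under Fgfr1 and Fgfr3. Fgf16, Fgf18 and Fgf9 followed at 24.3, 8.46 and 5.69 per kilobase, and Fgf3, Fgf4, Fgf5, Fgf8, Fgf10, Fgf15, Fgf17, Fgf20, Fgf21, Fgf22 and Fgf23 had no row. Of the bases of the Fgf2 transcript, 4.06% overlap another annotated gene on the same strand, and reads that overlapped several genes were left out of the authors' counting.

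Of 11 ligand genes of the ERBB receptors, 8 had a row. Hbegf, a ligand of EGFR and ERBB4, had 308, 286 and 243 normalized counts in mice 1, 2 and 3, or 117 ± 13.9 per kilobase. Tgfa, a ligand of EGFR, had 319, 258 and 572, or 81.2 ± 35.3 per kilobase, and Nrg1, a ligand of ERBB3 and ERBB4, had 261, 95 and 348, or 34.1 ± 18.7 per kilobase (SD, n = 3). The mice differed more in Tgfa and Nrg1 than in any of the 8 upper receptors, with CVs of 43.5% and 54.8%. Nrg4 and Egf stood at 23.01 and 4.57 per kilobase, and Areg, Epgn and Nrg3 had no row. Hbegf and Tgfa, ligands of EGFR, were therefore both far above Egfr, at 2.67 per kilobase.

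Of the insulin and IGF genes, Igf1 had 263, 437 and 387 normalized counts, or 51.2 ± 12.7 per kilobase (SD, n = 3), and Ins1 and Ins2 had no row. Igf2 had 35, 21 and 164, but 97.1% of its canonical exon bases overlap another annotated gene on the same strand, so its value is uncertain. The genes of IGF binding proteins, with Igf2r counted among them, were higher than the ligands. Of 8 such genes, 6 had a row, all 6 above the median of the table. Igfbp3 stood at 519 ± 38.5 per kilobase, Igfbp5 at 326 ± 73.0, Igfbp4 at 299 ± 14.4, Igfbp7 at 193 ± 9.37 and Igfbp6 at 168 ± 58.8, and the clearance receptor Igf2r at 149 ± 16.8 (SD, n = 3). Igfbp1 and Igfbp2 had no row.

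Hgf, the ligand of Met, had 0, 7 and 14 normalized counts in mice 1, 2 and 3, or 1.07 per kilobase. Both ligand and receptor were thus low. The Hgf values correspond to about 0, 7 and 15 reads. Only the 95% Poisson intervals of mice 1 and 3 lay apart, at 0 to 3.69 and 8.40 to 24.7. Of 5 genes that activate HGF or inhibit its activation, the inhibitor gene Spint2 had 482, 408 and 444 normalized counts, or 289 ± 24.0 per kilobase (SD, n = 3). The others were low. The activating proteases St14, Hpn and Hgfac stood at 14.8, 6.59 and 4.68 per kilobase and the inhibitor Spint1 at 2.19.

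**Figure D5:**
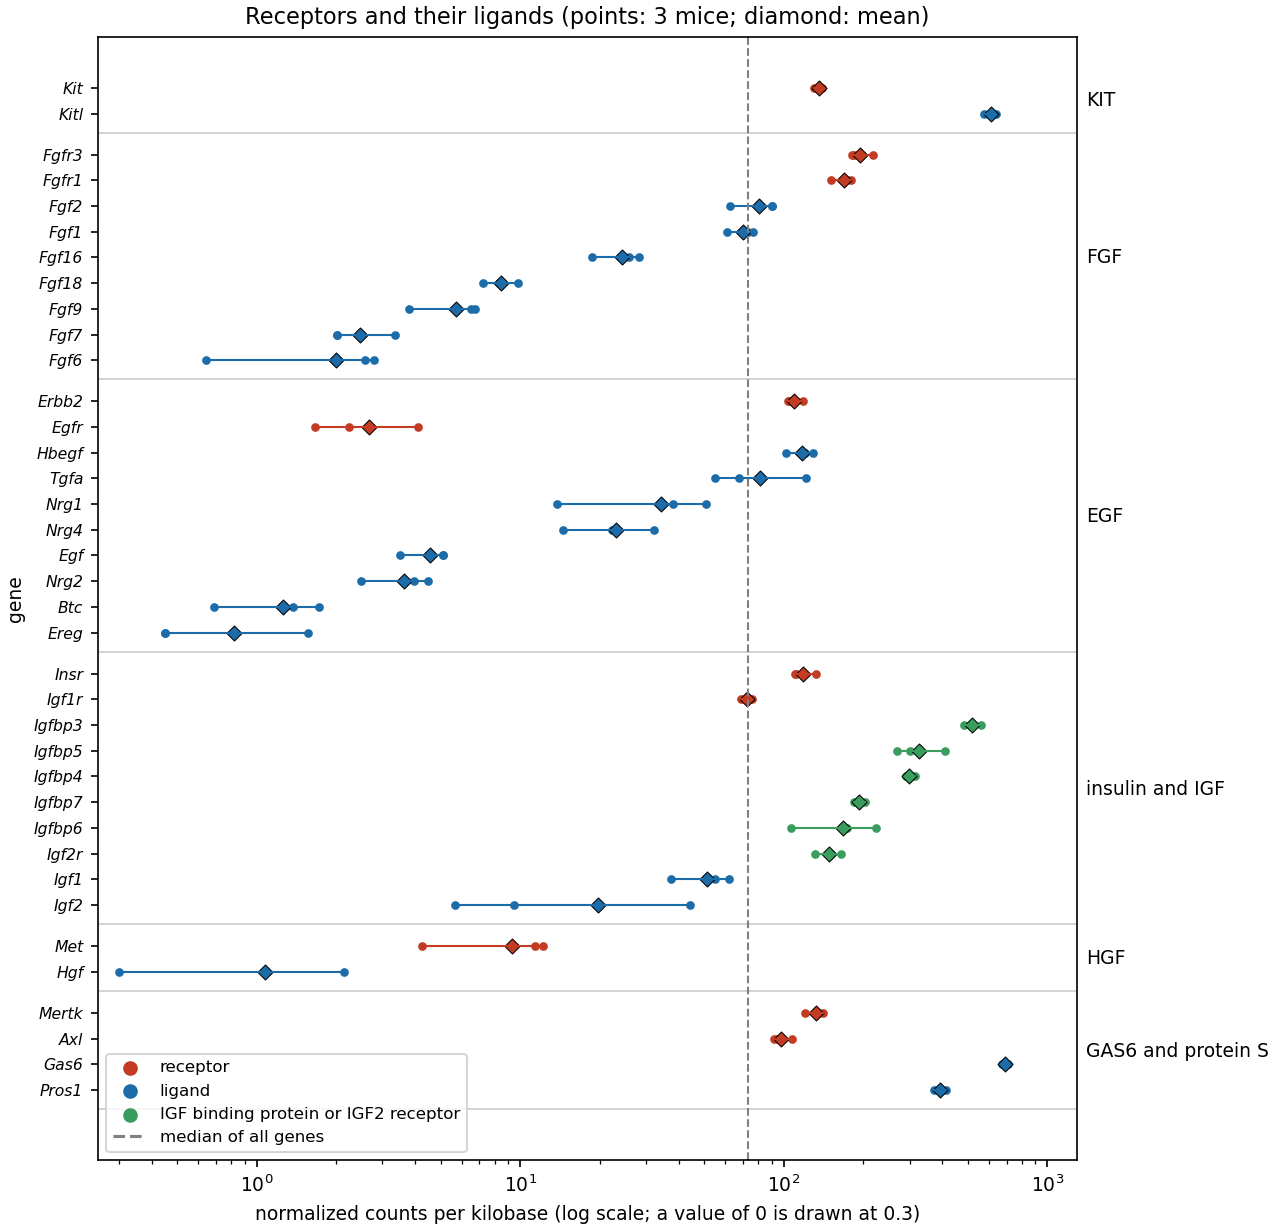
Levels of the receptors (red), their ligands (blue) and the IGF binding genes (green) in normalized counts per kilobase on a log scale, grouped by ligand family, with a point for each of 3 mice, a diamond for the mean and a dashed line for the median of all genes. Kitl at 610.4, Gas6 at 689 and Pros1 at 392.9 lie to the right of their receptors, whereas the FGF, IGF and HGF ligands lie to the left of theirs.

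Heparan sulfate proteoglycans, which present FGFs to their receptors, had high and low members. Of 9 FGF co-receptor genes, 8 had a row and 4 were above the median of the table. Sdc3 stood at 363 ± 16.2 normalized counts per kilobase, Hspg2, the gene of perlecan, at 265 ± 57.6, Sdc1 at 141 ± 9.09, Sdc4 at 103 ± 21.9 and Gpc1 at 51.3 ± 7.29 (SD, n = 3). The klotho co-receptors of circulating FGFs were the exception, with Kl at 1.69 per kilobase and Klb without a row.

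The shared machinery beneath the receptors was present throughout. All 24 adaptor and effector genes had a row, 19 of them above the median of the table, with a median of 141 per kilobase. The highest were Crk at 473 ± 11.4, Grb2, which couples receptors to Ras, at 436 ± 18.4, the negative adaptor Sh2b3 at 366 ± 27.2, the phosphatase Ptpn11 at 363 ± 7.11 and Plcg1 at 306 ± 14.9 normalized counts per kilobase (SD, n = 3). The insulin receptor substrate genes Irs1 and Irs2 were among the 5 genes at or below the median, whereas other adaptors of the insulin and IGF receptors, such as Grb10 at 268 ± 19.6 and Shc1 at 262 ± 22.3, were above it. Irs1 had 102, 160 and 130 normalized counts, or 14.0 ± 3.1 per kilobase, and Irs2 had 172, 84 and 61, or 14.3 ± 7.96 per kilobase. Both were well under Insr and Igf1r, and Irs2 differed more between mice than either receptor.

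All 12 genes on a list of receptor regulators, most of which limit signalling, had a row, and 8 were above the median of the table. The proteases Adam10 and Adam17, which shed receptors and ligands from the cell surface, stood at 385 ± 11.03 and 261 ± 7.18 normalized counts per kilobase. They need not limit signalling, and the study treats both as α-secretase genes, whose products release the soluble APP that promotes KIT activation. The phosphatase genes Ptpn1, whose product acts on the insulin receptor, and Ptpn2 stood at 239 ± 8.74 and 161 ± 15.3, and the ubiquitin ligase gene Cbl at 104 ± 14.2 (SD, n = 3). The median of the 12 genes was 90.0 per kilobase.

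Markers of 2 further cell types that carry some of these receptors were examined. All 5 Schwann cell markers, a list that includes Erbb3, had a row and summed to 89, 100 and 111 normalized counts in mice 1, 2 and 3, with Sox10 at 2, 5 and 3. All 4 epicardial markers had a row and summed to 910, 1102 and 1003, of which Wt1 made 871, 1055 and 939. The part of these cells in the receptor levels was not tested.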

How the data were processed

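Per the study's methods, reads of 72 bases were trimmed with Trimmomatic 0.39, aligned to mm39 with STAR 2.7.11a and freed of duplicates with Picard 3.1.1 and of multi-mapping, ribosomal and mitochondrial reads. Reads on the correct strand of exons, excluding those overlapping several genes, were counted with featureCounts 2.0.4 and normalized with DESeq2 1.36.0. The unit of the deposited values is therefore a score: the authors scaled the counts of each library by its size factor, and the results are rounded to whole numbers. No column belonged to another sample. Removal of duplicates caps the reads kept at one position, and its part in the highest genes was not tested.

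The members and gene lists were chosen with earlier results of these data known. Levels were divided by the length of the Ensembl canonical transcript (GENCODE M39, GRCm39), which 99.4% of identifiers had. This annotation is a newer release than the Ensembl annotation on which the authors counted. Named were all members, and the 5 highest genes and those without a row of each ligand, co-receptor, binding, processing, adaptor and regulator list. Of the other receptor tyrosine kinases, the 5 highest and the neighbours of each member were named. Other genes of the lists could be named with their values. Ratios were taken within a mouse and tested with an exact two-sided sign-flip permutation test over 3 mice, whose smallest p is 0.25 (0.5 with 2 mice), adjusted by Benjamini-Hochberg over 5 ratios. With 3 mice the p-value is 0.25 whenever all 3 ratios have the same sign. It therefore reflects direction only and measures neither the size of a ratio nor its spread between mice. The worth of 1 read was estimated from whole numbers between 5 and 120, and Poisson intervals at 95% cover counting error only. Sequences and copies were found with BLAST 2.17.0 and a search of exact matches. Python 3.11.15, numpy 2.4.6, pandas 2.3.3, scipy 1.17.1 and matplotlib 3.10.9 were used, and the statistics were tested on simulated data. Alternatives were another length, other scalings of the libraries, other thresholds and leaving out each mouse.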

Additional observations from a re-analysis of the deposited data

How the results depend on the processing

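Each of the 5 ratios had the same sign in all 3 mice, so leaving out a mouse could not reverse it. Adding 1 to each value hardly changed any ratio. Of 30 recomputed ratios of genes, which include these settings, 29 kept their direction. The exception was Fgfr1 to Fgfr3, whose log2 ratio was 0.33 with no division by length against −0.21 per kilobase. Leaving out each mouse in turn gave −0.29 to −0.05 for this ratio, −5.85 to −5.19 for Egfr to Erbb2, −0.77 to −0.57 for Igf1r to Insr, −0.48 to −0.36 for Axl to Mertk and −2.22 to −2.11 for Kit to Kitl. With 3 mice no ratio could pass a threshold of 0.05. The count of receptors with a CV over 20% was 1 without mouse 1 and 2 without either other mouse. All genes with a mean of at least 10 gave 24.2%, and 15.8% without mouse 1, an alternative added after seeing the data. The count of receptors above the median level was 1 when the median was taken over genes with a mean of at least 200. Division by the length of all annotated exons, which is longer for these genes, moved Kit from 135.9 to 75.5, Fgfr1 from 168.6 to 81.0, Fgfr3 from 195.0 to 93.3, Insr from 117.9 to 80.3, Axl from 97.9 to 49.5 and Igf1r from 72.7 to 45.8 normalized counts per kilobase. This alternative for single levels was added after seeing the data. The CV between mice exceeded that of counting alone in every one of the 10 receptors except Kit, and counting adds most to Met and Egfr, which have the fewest reads. No paired analysis was possible because all 3 libraries belong to 1 group, so that their numbers pair no groups, and the ratios above are of genes within a mouse.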

Other observations

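Of 23 receptor tyrosine kinase genes with a mean of at least 200 normalized counts, 2 had a CV over 20% between mice, against 8.0% of all genes of that level, and neither was among the 10 receptors described above. Ret, the receptor of the GDNF family ligands, had 314, 213 and 209 normalized counts in mice 1, 2 and 3, a CV of 24.3%. Ddr1, a collagen receptor, had 192, 200 and 345, a CV of 35.1%. Both were named after their values were seen.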
